A study of Rattus norvegicus with 19 samples.

Results

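The retinas of untreated diabetic rats were compared with those of vehicle-injected controls across all named genes that the array detected. The comparison uses 12 of the 19 arrays of the series, 5 from diabetic and 7 from control rats, and 7252 of the 12978 named genes on the array, each represented by 1 probe. A probe was kept where its detection p, which sets its signal against negative control beads, was under 0.05 on every array of at least 1 of the 2 groups. Both groups were male Sprague-Dawley rats. The diabetic rats had received a single intraperitoneal dose of streptozotocin (STZ, a toxin taken up by the insulin-producing beta cells of the pancreas) at 65 mg/kg and no insulin, and the controls had received the citrate vehicle. Whole retinas with the retinal pigment epithelium (RPE) were taken 3 months after the injection, once the lens and vitreous had been removed, and 1 array was hybridised for each rat. The other 7 arrays, from diabetic rats given insulin, enter only 1 alternative fit. The rats are numbered here as in the deposited labels, diabetic rats 1 to 5 and control rats 1 to 7.

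The retina is a layered sheet of photoreceptors, interneurons and ganglion cells, spanned by Müller glia and supplied by vessels whose endothelium forms a barrier. In diabetic retinopathy vessels leak and later close, and well before that the Müller glia take on a reactive state, microglia become activated and neurons lose function. NF-κB, a family of transcription factors that cytokine receptors switch on, the complement cascade and the presentation of peptides on MHC class I molecules are well-studied inflammatory branches of this response. The STZ rat models insulin deficiency and high glucose and does not go on to the growth of new vessels seen in people.

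All values below are log2 of the average-normalized signal, in which each array had been scaled to the same mean, with signals under 10 set to 10 before the logarithm. Differences are diabetic minus control on that scale, with the standard error (SE) from limma, and the Benjamini-Hochberg adjustment ran over all 10464 probes tested. The 12 arrays were spread over 2 BeadChips, as the slides are called. BeadChip 1 held control rats 1 to 3 and diabetic rats 4 and 5, and BeadChip 2 held control rats 4 to 7 and diabetic rats 1 to 3. Mean non-normalized signal ran from 337 to 433 per control array and from 318 to 409.9 per diabetic array (exact two-sided permutation p = 0.303, adjusted over 2 measures 0.303), and 11210 to 11481 and 11216 to 11709 probes passed the detection p (exact p = 0.141, adjusted 0.283). Replicate arrays of the controls correlated at r = 0.978 to 0.99 and those of the diabetic rats at 0.962 to 0.985 over the tested probes, and the median SD of a probe was 0.154 in controls and 0.231 in diabetic rats.

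Of 61 marker genes of the cell types that a dissected retina can hold, 44 had a named probe and 32 were detected. These included Gnat1, Pde6b, Sag and Nrl of rods, Prkca and Trpm1 of bipolar cells, Gad1 of amacrine cells, Nefl and Thy1 of ganglion cells and Rlbp1 and Slc1a3 of Müller glia, so the arrays carried retinal RNA as labelled. Of the microglial markers Aif1 was detected and Cx3cr1 and Itgam were not, and of the muscle markers Acta1 was detected and Myh4 and Ckm were not. Pax2 of astrocytes and Mbp and Mog of myelin were not detected either, and Gfap has no named probe. Lens genes were detected although the lens had been removed. The mean log2 signal of the 13 lens genes tested, of 14 with a named probe, was 6.62, 10.63, 7.32, 9.73, 9.68, 9.53 and 9.42 in control rats 1 to 7 and 10.95, 9.51, 8.20, 11.97 and 10.80 in diabetic rats 1 to 5. Control rats 1 and 3 were thus the lowest of the 12 and diabetic rat 4 the highest. Crygd, a lens crystallin, differed by 2.84 ± 0.97 (SE) and Bfsp1, a lens filament protein, by 1.92 ± 0.83, with adjusted p of 0.128 and 0.223. No lens gene passed the threshold, and the median difference of the list was 3.81 on BeadChip 1 and 0.16 on BeadChip 2.

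At an adjusted p under 0.05, 107 of 10464 probes changed (1.02%), 38 of them higher and 69 lower in the diabetic retina. Over the named genes 70 of 7252 changed (0.965%), 27 higher (0.372%) and 43 lower (0.593%). Most of the changes were modest. The rises ran from 0.31 to 1.64 on the log2 scale with 21 of 27 below a doubling, and the falls from 0.30 to 1.38 in size with 40 of 43 below it. In 24 of the 27 genes that rose and 40 of the 43 that fell, no diabetic rat overlapped a control rat. Such a separation was found upward in 0.91% and downward in 2.44% of all named genes.

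The whole distribution leaned toward lower signals in diabetes. The median difference over the named genes was −0.07, and 35.5% of them had a difference above 0. At an unadjusted p under 0.05, 5.83% of the named genes were higher and 15.1% lower, and these shares are the background for the gene lists below. When the arrays were quantile-normalized the median over the tested probes moved from −0.07 to −0.01, and 62.9% instead of 35.5% of the changed probes were higher. With neqc, a background correction with quantile normalization, the share was 60.8%, and with non-normalized signals centred on the median it was 45.6%. The number of changed probes also moved when single arrays were left out. It ranged from 16 without control rat 1 to 262 without diabetic rat 3, and it was 0 when control rats 1 and 3 were both left out or when the lens signal of each array was entered as a covariate. In the covariate fit the limma adjusted p was 0.0585 for each of Timeless, Tubb2b and Omg, and 0.105 for Lcn2. In the 12 fits that each left out 1 array, 11 of the 70 genes passed the threshold every time, Timeless, Tubb2b and Qsox1 among those that rose and Aste1, Bcl2l10 (a Bcl-2 family member), Cd5l, Crh, Ears2, Omg, Spink4 and Trmt12 among those that fell. The median gene passed in 3 of the 12. Bcl2l10, Crh and Ears2 were detected on every array only in controls. The adjusted p of Bcl2l10 reached 0.649 and that of Crh 0.722 over the alternatives other than the fits within 1 BeadChip. No such value is given for Ears2, because with the highest floor tried all its arrays lay at the floor.

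**Figure D1:**
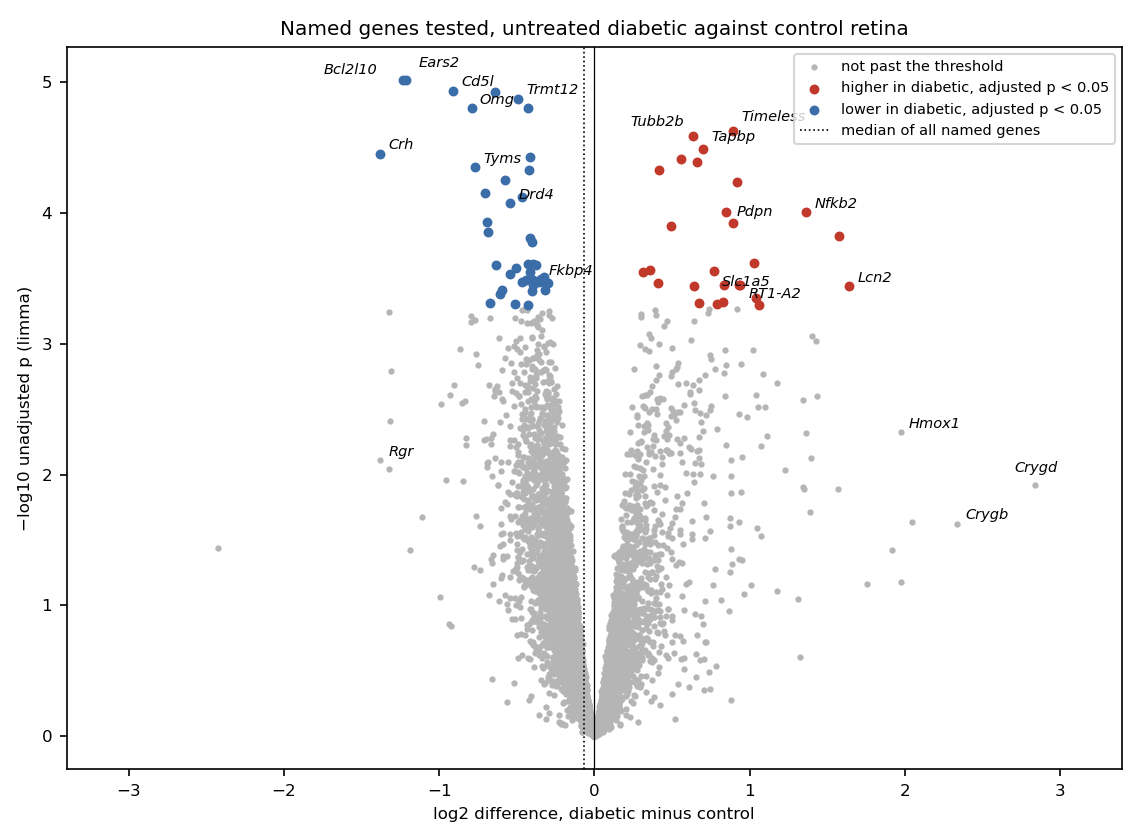
Log2 difference (diabetic minus control, x axis) against −log10 of the unadjusted limma p (y axis) for the 7252 named genes, with 27 genes that rose in red, 43 that fell in blue and the median of all named genes as a dotted line. The largest rise, 2.84 ± 0.97 (SE) for the lens crystallin Crygd, and the largest fall, −2.43 ± 1.04 for the ring finger gene Rnf113a2, named after its values were seen, did not pass the threshold.

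Tapbp, RT1-A2 and Nfkb2, of the MHC class I and NF-κB pathways, were among the genes that rose. Tapbp, or tapasin, which bridges class I molecules to the peptide transporter, had log2 signals of 7.52, 8.11, 7.95, 8.02 and 7.96 in diabetic rats 1 to 5 and 6.90 to 7.45, median 7.23 in the controls. Every diabetic rat lay above every control, with rat 1 the closest. The difference was 0.70 ± 0.11 (SE, adjusted p = 0.0214), and of the 12 fits that left out 1 array only the fit without control rat 1 lost the call. RT1-A2, a rat class I heavy chain, was at 10.22, 10.52, 11.36, 10.07 and 11.08 in the diabetic rats against 9.50 to 9.85, median 9.78 in the controls, again without overlap, with a difference of 0.93 ± 0.19 (SE, adjusted p = 0.0414). Class I genes form a family of near-identical copies in the rat, and the probe may read several of them. The call stood in 3 of the 12 fits that left out 1 array, and was lost without any single control or without diabetic rat 2 or 5, and with BeadChip as a block the adjusted p was 0.0547. Nfkb2, which encodes the p100 precursor of the p52 NF-κB subunit, was dim, and it was detected on every array only in the diabetic group. Its values were 4.91, 5.88, 5.43, 4.66 and 5.61 against 3.32 to 4.54, median 3.85, with no overlap, and it differed by 1.36 ± 0.25 (SE, adjusted p = 0.0271), a call that stood in 6 of the 12 fits and was lost without any single one of control rats 1 to 5 or without diabetic rat 2. With neqc its difference was 0.74, and its adjusted p reached 0.562 over the alternatives other than the fits within 1 BeadChip.

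The antigen presentation list, 20 genes tested, had 2 members that rose and none that fell. At an unadjusted p under 0.05 there were 9 higher and 1 lower, its median difference was 0.40 beside −0.07 over all named genes, and the median was 0.63 on BeadChip 1 and 0.14 on BeadChip 2. Tap2, a subunit of the peptide transporter, was at or near the floor in the controls (3.32 to 4.27, median 3.32) and at 4.31, 4.41, 4.64, 6.49 and 5.31 in the diabetic rats. These did not overlap, but the difference of 1.43 ± 0.34 (SE, adjusted p = 0.0603) missed the threshold, and with neqc it was 0.73. Tap2 was detected on every array only in the diabetic group. In bulk tissue more cells of a type and more RNA per cell cannot be told apart. The 1 lower member was Ciita, the transactivator of MHC class II genes, at −1.32 ± 0.29 (SE, adjusted p = 0.051). It was detected on every array only in controls, diabetic rat 2 lay at the floor, and with neqc its difference was −0.84. Among the 25 adhesion, chemokine and cytokine genes 3 rose, Nfkb2, Litaf and Tnfrsf12a (the TWEAK receptor), and none fell, while 9 of the 25 had a difference below 0 and the median was 0.13. Tnfrsf12a, detected on every array only in the diabetic group, was at 5.58, 5.67, 6.61, 6.61 and 5.50 against 3.46 to 5.41, median 4.33 and differed by 1.58 ± 0.30 (SE, adjusted p = 0.0312), a call that stood in 5 of the 12 fits. The TNF receptor gene Tnfrsf1a was at 5.62, 5.82, 7.06, 6.79 and 5.91 in the diabetic rats against 4.78 to 5.6, median 5.32, without overlap, and at 1.02 ± 0.25 (SE, adjusted p = 0.0636) it did not pass.

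The bases in front of these genes are shown because NF-κB and interferon-regulated factors are known to bind sites of this kind at class I pathway promoters, and those of Mt1, the metallothionein that rose beside them, because its gene is the textbook example of metal-response elements. Each line gives the 250 bases that end just before the annotated start in RefSeq (build GRCr8), 5′ to 3′ on the gene's strand, with matches on either strand in capitals. The letters searched were GGAAANTCC and GGGNNTTCC for NF-κB, GAAANNGAA for interferon-regulated factors and TGCNCNC, marked in Mt1 alone, for the metal-response core.
Nfkb2, chr1:255108124-255108373, plus strand: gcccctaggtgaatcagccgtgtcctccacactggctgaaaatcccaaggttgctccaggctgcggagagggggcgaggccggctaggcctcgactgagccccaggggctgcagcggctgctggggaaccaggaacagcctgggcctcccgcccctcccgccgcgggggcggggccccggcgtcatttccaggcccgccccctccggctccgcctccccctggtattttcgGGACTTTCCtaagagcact
Tapbp, chr20:4967878-4968127, minus strand: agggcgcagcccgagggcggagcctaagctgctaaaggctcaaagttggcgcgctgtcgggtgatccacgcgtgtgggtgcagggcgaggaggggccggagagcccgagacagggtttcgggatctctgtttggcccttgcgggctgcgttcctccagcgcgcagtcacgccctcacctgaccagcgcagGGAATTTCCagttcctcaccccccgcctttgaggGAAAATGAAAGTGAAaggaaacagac
RT1-A2, chr20:4872621-4872870, plus strand: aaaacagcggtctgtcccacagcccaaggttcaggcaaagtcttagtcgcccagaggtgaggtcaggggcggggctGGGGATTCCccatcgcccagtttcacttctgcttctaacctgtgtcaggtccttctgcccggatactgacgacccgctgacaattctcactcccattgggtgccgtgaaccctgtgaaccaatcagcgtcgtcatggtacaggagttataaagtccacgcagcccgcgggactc
Mt1, chr19:10832976-10833225, minus strand: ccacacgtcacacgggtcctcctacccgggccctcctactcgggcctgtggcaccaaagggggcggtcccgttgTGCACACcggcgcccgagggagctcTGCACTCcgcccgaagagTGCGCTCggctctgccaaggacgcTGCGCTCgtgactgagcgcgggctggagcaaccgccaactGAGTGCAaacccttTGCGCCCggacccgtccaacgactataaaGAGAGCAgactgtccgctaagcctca
Nfkb2 held 1 match to GGAAANTCC, its first base 19 bases before the start. Tapbp held the same letters at 60 bases and a pair of overlapping GAAANNGAA matches at 26 and 20 bases, and RT1-A2 held GGGNNTTCC at 174 bases. Mt1 held 7 matches to TGCNCNC between 176 and 26 bases before the start. Over the 6075 tested genes with an entry in the promoter table, 1.12% of windows of this length held GGAAANTCC, 5.91% held GGGNNTTCC, 6.11% held GAAANNGAA and 54.4% held TGCNCNC. Of 24 genes that rose and have an entry, the letters were in 2, 2, 2 and 9, respectively. Litaf and Tnfrsf12a, which rose in the same list as Nfkb2 and have an entry, held none of the NF-κB or interferon letters. A match describes the letters in the window, and binding was not measured.

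The genes of reactive glia and the acute phase had the highest median of all lists but the lens and the study's qPCR genes. Of 23 members tested 2 rose, Lcn2 and Litaf, and 12 were higher and none lower at an unadjusted p under 0.05. The difference was above 0 in 22 of 23, with a median of 0.82 (1.5 on BeadChip 1 and 0.50 on BeadChip 2). Lcn2, or lipocalin 2, an iron-siderophore carrier secreted by reactive glia, had the largest called rise, a call that did not stand with BeadChip as a block (adjusted p = 0.056) or with all 3 groups in 1 model (adjusted p = 0.149). Its log2 signals were 7.71, 8.15, 8.94, 9.37 and 8.40 in diabetic rats 1 to 5 and 5.82 to 7.58, median 6.71 in the controls. The groups were apart, though diabetic rat 1 lay close to the top control, and the difference was 1.64 ± 0.34 (SE, adjusted p = 0.0414). Litaf, a late endosomal protein first described as an LPS-induced regulator of TNF, was at 8.02, 7.69, 8.76, 8.54 and 8.51 against 7.21 to 7.72, median 7.55. Diabetic rat 2 fell inside the control range, and the difference was 0.79 ± 0.17 (SE, adjusted p = 0.0495). Pdpn, the membrane glycoprotein podoplanin, is in no list and was at 10.34, 10.56, 11.20, 11.25 and 10.90 against 9.74 to 10.25, median 10.04, with every diabetic rat above every control and a difference of 0.85 ± 0.15 (SE, adjusted p = 0.0271). The call of Lcn2 was lost without any single array other than diabetic rat 1, that of Litaf without any single control or without diabetic rat 3, 4 or 5, and that of Pdpn without control rat 1, 3, 5 or 7 or diabetic rat 4.

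In several members of this list the diabetic group was split, with rats 1 and 2 at or near control levels and rats 3, 4 and 5 well above. Chi3l1, a chitinase-like glycoprotein of reactive astrocytes, was at 9.15, 9.37, 11.48, 11.47 and 11.55 in diabetic rats 1 to 5 and 9.22 to 9.57, median 9.37 in the controls. A2m, the protease inhibitor alpha-2-macroglobulin, was at 10.64, 10.56, 12.84, 12.34 and 11.57 against 10.51 to 10.75, median 10.64, and Fabp7, the brain fatty acid-binding protein, at 4.52, 4.66, 7.20, 6.67 and 6.12 against 4.17 to 4.77, median 4.51. Rats 1 and 2 lay below the highest control in all 3 genes, while the other 3 rats were well above it. With this spread none passed, at differences of 1.23 (adjusted p = 0.115), 0.95 (adjusted p = 0.137) and 1.36 (adjusted p = 0.0938). Fabp7 was dim and detected on every array only in the diabetic group, and with neqc its difference was 0.995. Stat3, the transcription factor that drives acute phase genes downstream of cytokine receptors, was at 7.30, 7.27, 8.58, 8.01 and 7.81 against 6.91 to 7.25, median 7.15, just apart, with a difference of 0.68 ± 0.19 (SE, adjusted p = 0.0848). The mean of the 23 members was 0.31 and 0.20 above the control mean in diabetic rats 1 and 2, and 1.22, 1.75 and 0.90 above it in rats 3, 4 and 5.

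The complement list had no call, yet all 16 members tested had a difference above 0. Of these, 8 were higher and none lower at an unadjusted p under 0.05, and the median was 0.62 (1.15 on BeadChip 1, 0.21 on BeadChip 2). Serping1, the C1 inhibitor, was at 7.46, 7.66, 9.47, 9.62 and 8.33 in diabetic rats 1 to 5 and 5.97 to 7.82, median 7.35 in the controls. C1s, a protease of the first complement component, was at 6.84, 6.86, 9.0, 9.48 and 7.78 against 5.68 to 7.24, median 6.82. Diabetic rats 1 and 2 again lay within the control range for both genes, and the differences were 1.40 (adjusted p = 0.107) and 1.34 (adjusted p = 0.13). C1qc, a chain of C1q, differed by 0.88 ± 0.34 (SE, adjusted p = 0.169), and Clu, the abundant fluid-phase inhibitor clusterin, by 0.62 ± 0.17 (SE, adjusted p = 0.0778). Without diabetic rat 4 the median of the list was 0.37, and with the lens covariate it was 0.36.

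The medians of the other immune lists were smaller. Of 16 microglia and leukocyte genes none passed, 6 were higher and 1 lower at an unadjusted p under 0.05, and the median was 0.33, which became 0.12 without diabetic rat 4. Coro1a, a leukocyte actin regulator, was at 7.17, 7.76, 7.83, 7.82 and 7.50 against 6.92 to 7.36, median 7.05, with diabetic rat 1 alone inside the control range and a difference of 0.50 ± 0.13 (SE, adjusted p = 0.0706). Jak3, the kinase of common gamma chain cytokine receptors, differed by 0.93 ± 0.26 (SE, adjusted p = 0.0852). Of the defining microglial markers Cx3cr1 and Itgam were not detected, and Aif1, an actin-binding protein of microglia, differed by 0.42 ± 0.25 (SE, adjusted p = 0.378) with diabetic rat 4 the highest of the 12 arrays. Of 16 interferon-response genes none passed, 2 were higher and 1 lower at an unadjusted p under 0.05, and the median was 0.16 (0.60 on BeadChip 1 and 0.03 on BeadChip 2), which became 0.07 without diabetic rat 4. Gbp2, an interferon-induced GTPase, differed by 1.34 ± 0.36 (SE, adjusted p = 0.0796) and Irf1, an interferon-induced transcription factor, by 0.28 ± 0.08 (SE, adjusted p = 0.0987). Gbp2 was detected on every array only in the diabetic group, and with neqc its difference was 0.93.

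**Figure D2:**
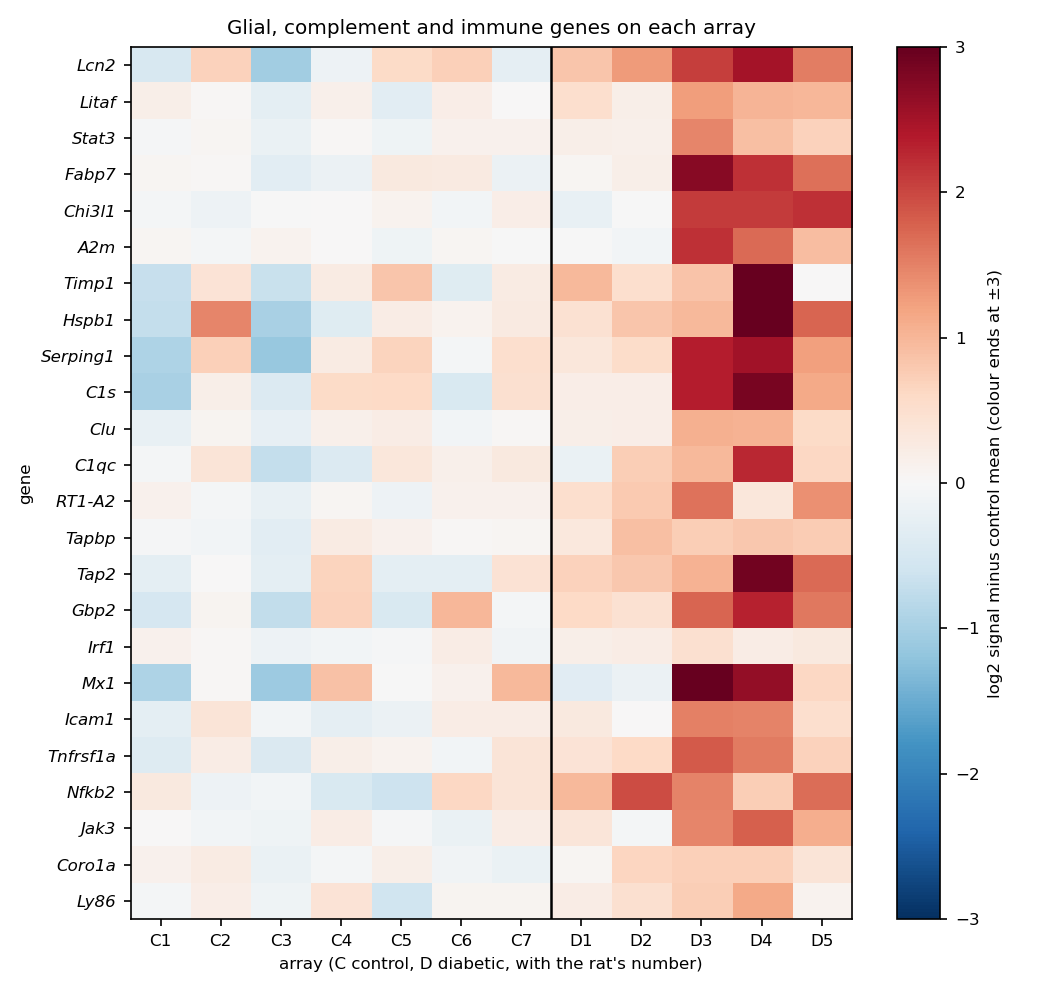
Log2 signal minus the control mean (colour) of 24 glial, complement and immune genes (rows) on the 7 control arrays and 5 diabetic arrays (columns), with the colour scale ending at ±3. Tapbp and Nfkb2 were above the controls in every diabetic rat, whereas Chi3l1, A2m, C1s and Fabp7 were high in diabetic rats 3, 4 and 5 only.

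Outside the immune lists the clearest rise was of Timeless, a replication-fork protein whose Drosophila homolog is a clock gene. Its values were 7.97, 8.63, 7.75, 7.93 and 8.38 in diabetic rats 1 to 5 and 7.00 to 7.37, median 7.30 in the controls, with a gap between the groups and a difference of 0.90 ± 0.14 (SE, adjusted p = 0.0214). Tubb2b, a beta-tubulin of neurons, was at 7.73, 8.17, 8.35, 7.98 and 8.14 against 7.33 to 7.65, median 7.42, likewise apart, and differed by 0.63 ± 0.10 (SE, adjusted p = 0.0214). Slc1a5, the exchanger that carries glutamine and other neutral amino acids, was at 6.5, 7.04, 6.13, 6.07 and 6.72 against 5.49 to 5.89, median 5.82 and differed by 0.77 ± 0.16 (SE, adjusted p = 0.0414). That call was lost without any single control or without diabetic rat 1, 2 or 5. Slc1a5 was the only one of 153 solute carriers tested to pass, while 7 were higher and 26 lower at an unadjusted p under 0.05 and the median was −0.07. Of 41 tubulin and microtubule genes Tubb2b was the only call, and their median was 0.02.

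Qsox1, Jup, Adamtsl4 and Tmbim1 also rose. Qsox1, a sulfhydryl oxidase that forms disulfide bonds in secreted proteins, was at 8.77, 8.76, 9.21, 9.09 and 8.93 in the diabetic rats and 8.24 to 8.51, median 8.39 in the controls and differed by 0.56 ± 0.09 (SE, adjusted p = 0.0214). Jup, the junction protein plakoglobin, was at 8.80, 8.78, 8.91, 8.75 and 8.73 against 8.19 to 8.49, median 8.42 and rose by 0.42 ± 0.07 (SE, adjusted p = 0.0214). Adamtsl4, a secreted glycoprotein of fibrillin microfibrils, rose by 0.66 ± 0.11 (SE, adjusted p = 0.0214), and its other probe by 0.95 with the same adjusted p. The 3 genes had no overlap between the groups. Rras, a small GTPase of integrin signalling, was higher by 0.83 ± 0.18 (SE, adjusted p = 0.0495), and Pde9a, a phosphodiesterase specific for cGMP, by 0.36 ± 0.07 (SE, adjusted p = 0.0414). Tmbim1, a membrane protein of the Bax-inhibitor family, was at 6.15, 6.16, 6.87, 7.04 and 6.43 against 5.35 to 5.96, median 5.66 and rose by 0.90 ± 0.17 (SE, adjusted p = 0.0285). P3h4, a partner of collagen hydroxylases, Tagln2, an actin-binding protein, and Gpsm3, a G-protein modulator of leukocytes, rose by 1.03, 1.06 and 0.92, with adjusted p of 0.0414, 0.0495 and 0.0233. Of the 12 fits that left out 1 array, the call stood in 12 for Qsox1, in 11 for Jup and Adamtsl4, in 9 for Gpsm3, in 5 for Tmbim1, in 4 for P3h4, in 2 for Rras and in 1 for Pde9a and Tagln2.

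Antioxidant genes were represented by 49 members tested, of which 2 rose and none fell. These were Mt1, at 10.53, 10.36, 11.23, 10.40 and 10.79 in diabetic rats 1 to 5 against 8.90 to 10.11, median 9.74 and 1.04 ± 0.22 (SE, adjusted p = 0.0479), and Txnip, the thioredoxin inhibitor known for its induction by glucose, at 0.94 ± 0.20 (SE, adjusted p = 0.0414). The call of Mt1 was lost in each of the 12 fits that left out 1 array, and that of Txnip stood in 3. A further 9 were higher at an unadjusted p under 0.05 and 3 lower. Blvrb, a biliverdin reductase, was at 7.47, 8.21, 7.35, 7.17 and 7.49 in diabetic rats 1 to 5 against 6.78 to 7.09, median 6.92, apart but short of the threshold at 0.62 ± 0.15 (SE, adjusted p = 0.0603). Hmox1, the heme oxygenase that makes biliverdin, was at 6.80, 5.92, 6.46, 10.10 and 8.88 against 5.30 to 5.91, median 5.71. It was far higher in diabetic rats 4 and 5, both on BeadChip 1, than in the others, and differed by 1.97 ± 0.58 (SE, adjusted p = 0.0931). Mt1, Txnip and Litaf also belong to the 22 genes tested that the study followed up by qPCR, 3 of which rose and 1 of which, the dopamine receptor gene Drd5, fell. The study chose those genes on these samples, so their direction is no independent evidence.

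**Figure D3:**
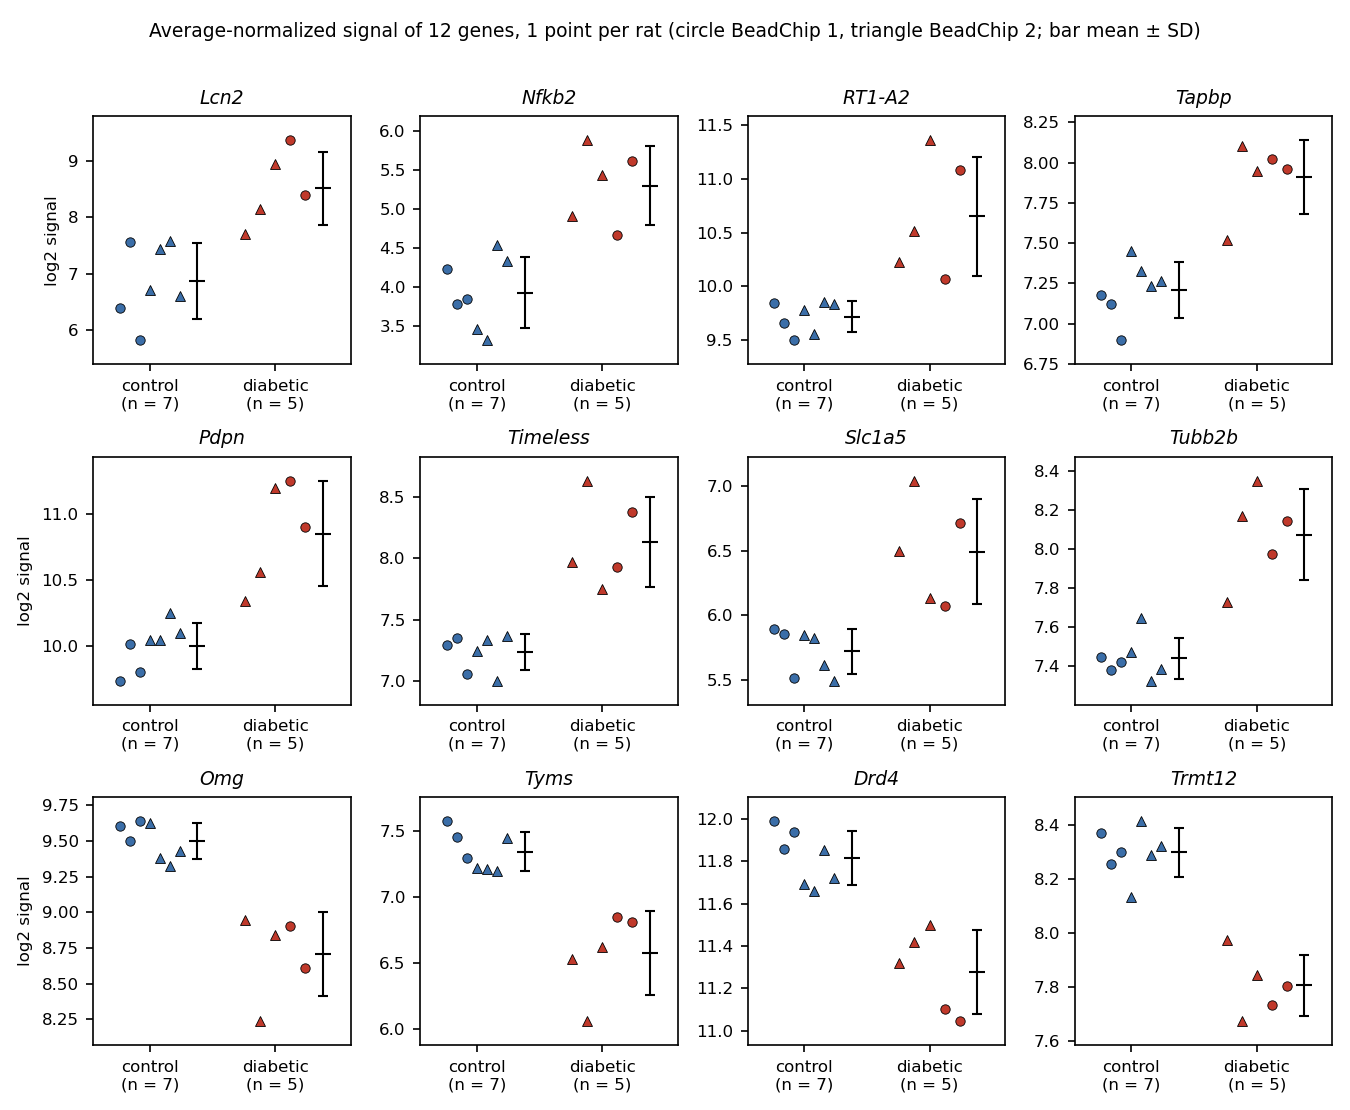
Log2 signal (y axis) of 12 genes that changed, 1 point for each of the 7 control rats (blue) and 5 diabetic rats (red), circles for BeadChip 1 and triangles for BeadChip 2, bars mean ± SD. In all 12 genes, between Lcn2 with a difference of 1.64 and Omg with −0.79, no diabetic rat overlapped a control.

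Omg, Tyms, Cd5l and Spink4 were among the genes that fell furthest beyond their spread. Omg, the oligodendrocyte-myelin glycoprotein, which neurons also make and which restrains axon growth, was at 8.95, 8.24, 8.84, 8.90 and 8.61 in diabetic rats 1 to 5 and 9.32 to 9.64, median 9.50 in the controls. All diabetic rats lay below all controls, rat 2 the lowest, and the difference was −0.79 ± 0.12 (SE, adjusted p = 0.0214). It was the only call among the 7 myelin and optic nerve genes tested, of which Mbp and Mog were not part because they were not detected. Tyms, the thymidylate synthase of nucleotide synthesis, was at 6.53, 6.06, 6.62, 6.84 and 6.81 against 7.20 to 7.57, median 7.29, also apart, and fell by 0.77 ± 0.13 (SE, adjusted p = 0.0214). Cd5l, a macrophage-secreted scavenger receptor protein, was at 5.12, 4.95, 4.89, 4.72 and 4.83 against 5.43 to 6.14, median 5.76 and fell by 0.91 ± 0.13 (SE, adjusted p = 0.0214). Spink4, a secreted protease inhibitor, was at 6.44, 6.46, 6.61, 6.20 and 6.51 against 6.91 to 7.37, median 7.03 and fell by 0.64 ± 0.09 (SE, adjusted p = 0.0214). Of the 4, Tyms alone lost its call when an array was left out, control rat 1.

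Among the 4 dopamine receptor genes tested, Drd4 and Drd5 fell. Drd4, the receptor through which dopamine lowers cyclic AMP in photoreceptors, had a high signal of 11.66 to 11.99, median 11.86 in the controls and 11.32, 11.42, 11.50, 11.10 and 11.04 in diabetic rats 1 to 5. The groups were apart, with diabetic rats 4 and 5 the lowest, and it fell by 0.54 ± 0.10 (SE, adjusted p = 0.0261), with differences of −0.86 on BeadChip 1 and −0.32 on BeadChip 2. The call was lost without control rat 1, 3 or 6 or diabetic rat 4. Drd5, which acts through the stimulatory G protein, was dim and detected on every array only in controls, at 4.61, 4.67, 4.02, 4.56 and 4.79 in the diabetic rats against 5.01 to 5.50, median 5.13, and fell by 0.68 ± 0.13 (SE, adjusted p = 0.0303), a call that stood in 6 of the 12 fits. Drd1 and Drd2, named after their values were seen, differed by −0.14 (adjusted p = 0.531) and −0.05 (adjusted p = 0.781), and the sign of Drd2 turned after quantile normalization and with neqc. The third call among 30 amacrine and horizontal cell genes was Crh, the corticotropin-releasing hormone, with a fall of 1.38 ± 0.23 (SE, adjusted p = 0.0214). It too was dim and detected on every array only in controls, at 5.07, 4.00, 4.04, 3.32 and 3.85 in the diabetic rats, where rat 4 lay at the floor, against 5.28 to 5.77, median 5.30. With neqc the differences of Crh and Drd5 were −0.68 and −0.35. Th, the rate-limiting enzyme of dopamine synthesis, had a difference of −0.22 ± 0.16 (SE, adjusted p = 0.459). Gchfr, the feedback regulator of the enzyme that makes the cofactor of Th, was at 8.73, 9.55, 8.04, 8.41 and 9.02 against 7.90 to 8.31, median 8.05, with rat 3 among the controls, and differed by 0.68 ± 0.20 (SE, adjusted p = 0.0963).

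Trmt12, Rpf1 and Aste1 had some of the smallest p values of the genes that fell. Trmt12, an enzyme of tRNA wybutosine modification, was at 7.97, 7.67, 7.84, 7.73 and 7.80 in diabetic rats 1 to 5 against 8.13 to 8.41, median 8.30, and fell by 0.49 ± 0.07 (SE, adjusted p = 0.0214). Rpf1, a factor of 60S ribosome assembly, was at 9.05, 8.98, 9.24, 9.14 and 9.20 against 9.45 to 9.68, median 9.53 and fell by 0.42 ± 0.07 (SE, adjusted p = 0.0214). Aste1, a predicted nuclease, fell by 0.43 ± 0.06 (SE, adjusted p = 0.0214), and Rpp38, a protein of the tRNA-processing RNase P, by 0.67 ± 0.15 (SE, adjusted p = 0.0495). All but Rpp38 were without overlap. Eef1e1, a scaffold protein of the aminoacyl-tRNA synthetase complex, fell by 0.31 ± 0.07 (SE, adjusted p = 0.0432) and Dusp11, an RNA phosphatase, by 0.47 ± 0.10 (SE, adjusted p = 0.0414). The calls stood in 12 of the 12 fits for Trmt12 and Aste1, in 11 for Rpf1, in 2 for Dusp11 and in 1 for Rpp38 and Eef1e1. Ears2, the mitochondrial glutamyl-tRNA synthetase, was dim, detected on every array only in controls, and fell by 1.21 to a diabetic range of 3.65 to 4.78 from 5.00 to 5.64, median 5.32, and with neqc its difference was −0.59. Polr1f of RNA polymerase I, Mphosph10 of the small-subunit processome and the thiouridylase subunit Ctu2, named here after their values were seen, had differences of −0.30, −0.37 and −0.39 with an adjusted p of 0.0414 each. Their calls stood in 1, 3 and 2 of the 12 fits.

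The nucleolar list had small differences, most of them below 0. Of 43 genes around Myc, Max and the nucleolus none passed, 14 were lower and none higher at an unadjusted p under 0.05 against a background of 15.1% lower, and 36 had a difference below 0. Their median was −0.18 beside −0.07 over all named genes. The mean of the list was 8.17, 8.06, 8.15, 8.14 and 8.21 in diabetic rats 1 to 5 and 8.26 to 8.33 in the controls, so the groups did not overlap although no member was called. The means of the translation factors, 9.45 to 9.68 in diabetic rats and 9.69 to 9.73 in controls, and of 16 mitochondrial import genes, 8.85 to 8.96 and 8.98 to 9.02, did not overlap either. No other of the 57 lists had means apart in the groups. These means were taken on the scaling in which the median of all named genes was −0.07, and their separation was not examined after quantile normalization. Max, the partner of Myc, was at 6.75, 6.53, 7.04, 6.56 and 6.83 against 6.96 to 7.42, median 7.31 and differed by −0.48 ± 0.12 (SE, adjusted p = 0.0636). Polr1c, shared by RNA polymerases I and III, and the U3 processome protein Imp3 were apart in the groups with differences of −0.22 (adjusted p = 0.107) and −0.21 (adjusted p = 0.101). Npm1, the abundant nucleolar chaperone, and Pes1, a ribosome assembly factor, differed by −0.20 (adjusted p = 0.125) and −0.30 (adjusted p = 0.114). Quantile normalization brought the list's median to −0.12 and that of all tested probes to −0.01.

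Most stress and protein-folding genes also had a difference below 0, as had 4675 of all 7252 named genes. Of 47 genes of the ATF4 and endoplasmic reticulum stress pathways none passed, 13 were lower and 1 higher at an unadjusted p under 0.05, 40 had a difference below 0 and the median was −0.16. Herpud1, which works in the removal of misfolded proteins from the endoplasmic reticulum, was at 10.73, 10.20, 10.48, 9.90 and 10.45 in diabetic rats 1 to 5 and 10.66 to 11.15, median 10.86 in the controls, with rat 1 inside their range, and differed by −0.56 ± 0.13 (SE, adjusted p = 0.0636). On the list mean diabetic rats 2 and 4 were the lowest of the 12 arrays, at −0.37 and −0.52 relative to the control mean, and rats 1 and 5 lay inside the control range. Of 37 heat shock and co-chaperone genes 1 fell, Fkbp4, an immunophilin partner of Hsp90, at 5.93, 5.94, 5.75, 5.68 and 5.78 against 6.02 to 6.25, median 6.18, by 0.34 ± 0.07 (SE, adjusted p = 0.0414), a call that stood in 3 of the 12 fits. The mean of the 37 genes overlapped between the groups, at 9.60 to 9.77 in diabetic rats and 9.62 to 9.84 in controls. At an unadjusted p under 0.05, 4 members were higher and 10 lower. A difference below 0 was found in 27, and the median was −0.11 beside −0.07 over all named genes. The differences ran from −0.51 to 1.57, so the member furthest from 0 was higher, and no rise passed the threshold. Dnajb1, a heat-inducible Hsp40, was apart at 11.11, 11.04, 11.38, 11.35 and 11.16 against 11.40 to 11.98, median 11.60 and differed by −0.40 ± 0.10 (SE, adjusted p = 0.07), while Hspb8, a small heat shock protein, differed by 0.26 ± 0.08 (SE, adjusted p = 0.105).

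Lists of RNA and protein synthesis gave few calls and small medians. Of 47 translation factors 1 fell, Eef1e1, and the median was −0.10. Of 50 splicing genes none passed, 11 were lower and 1 higher at an unadjusted p under 0.05, and the median was −0.09. Srsf7 and Prpf3, both splicing factors, differed by −0.48 ± 0.13 (SE, adjusted p = 0.0778) and −0.34 ± 0.09 (SE, adjusted p = 0.0682). The 1 higher member was Hnrnpab, an RNA-binding protein, which was at 5.53, 5.58, 5.34, 5.49 and 5.92 in diabetic rats 1 to 5 and 4.51 to 5.24, median 5.04 in the controls. It did not overlap and at 0.64 ± 0.14 (SE, adjusted p = 0.051) missed the threshold narrowly. The 56 mitochondrial ribosomal proteins had no call, 11 lower and none higher at an unadjusted p under 0.05 and a median of −0.09, with Mrpl50 at −0.48 ± 0.14 (SE, adjusted p = 0.091). The 61 cytosolic ribosomal proteins had no call either and a median of 0.09, with 48 of the 61 above 0. Their mean was highest of the 12 arrays in diabetic rat 2 and lowest in diabetic rat 3, at 0.36 and −0.31 relative to the control mean, and these arrays had the lowest array weights, 0.32 and 0.33.

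Among 17 circadian clock genes 1 was called, Timeless, which rose. The others leaned down, with 6 lower and none but Timeless higher at an unadjusted p under 0.05, and the median was −0.25. Cry1 and Per2, which form the repressor of the clock, were at 10.06, 9.67, 10.05, 9.54 and 9.85 and 9.38, 8.90, 9.56, 9.47 and 9.42 in diabetic rats 1 to 5 against 10.12 to 10.60, median 10.28 and 9.59 to 9.97, median 9.70. Neither overlapped between the groups. The differences were −0.47 ± 0.12 (SE, adjusted p = 0.0687) and −0.37 ± 0.11 (SE, adjusted p = 0.096), and Wee1, a cell-cycle kinase under clock control, differed by −0.36 ± 0.10 (SE, adjusted p = 0.0925). The hour at which each rat was killed is not given in the sources used here.

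**Figure D4:**
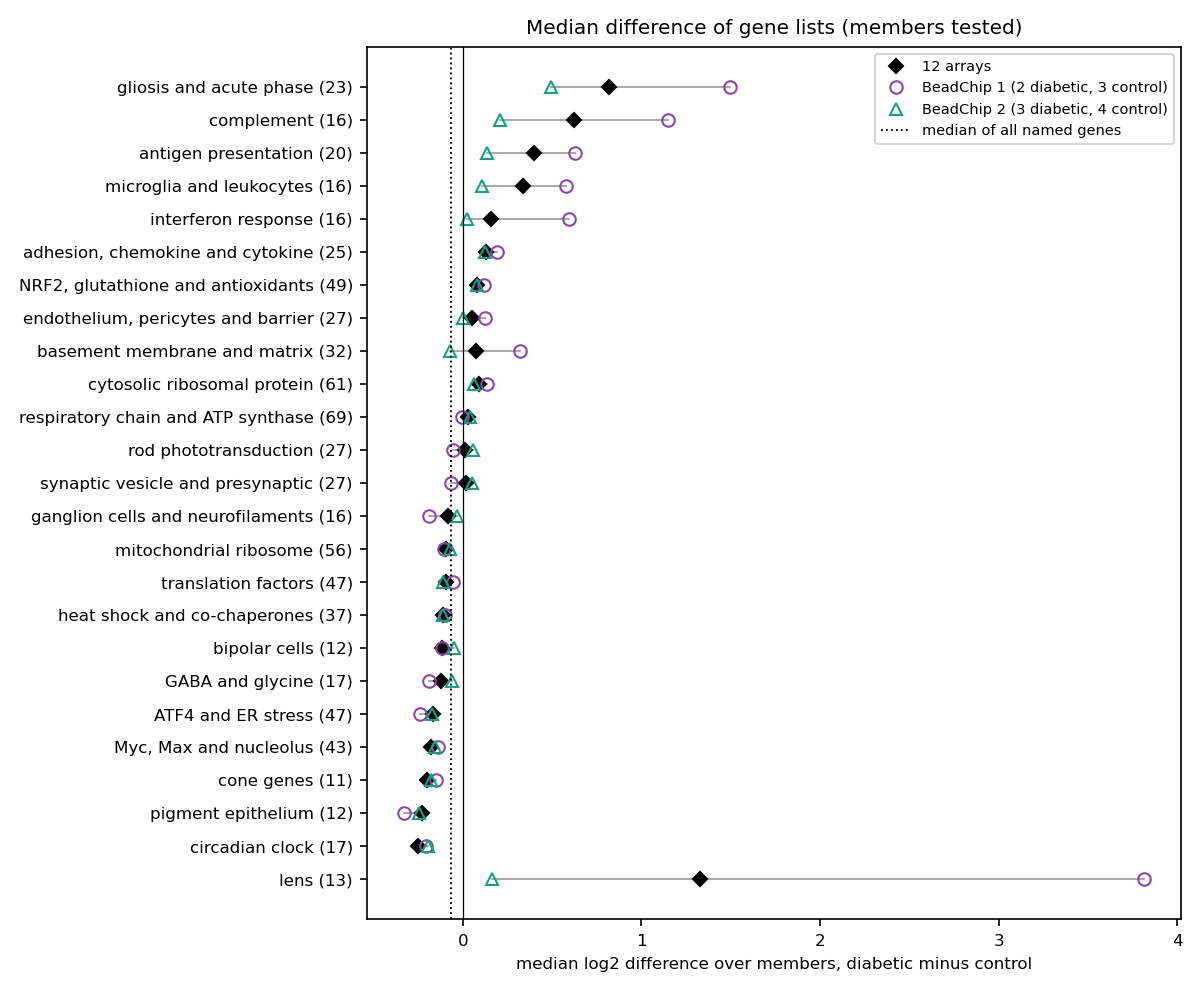
Median log2 difference (diabetic minus control, x axis) of the members of 25 gene lists with the number of members tested in brackets, over all 12 arrays (diamonds) and within BeadChip 1 (circles) and BeadChip 2 (triangles), the dotted line being the median of all named genes at −0.07. The gliosis, complement and lens lists have larger medians on BeadChip 1, of 1.5, 1.15 and 3.81, than on BeadChip 2.

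Photoreceptor lists gave no call. Of 27 rod phototransduction genes none passed, and the median was 0.01, below 0 after quantile normalization. Gnb1, the beta subunit of rod transducin, was at 13.88, 13.84, 14.08, 13.84 and 13.80 in diabetic rats 1 to 5 and 13.17 to 13.75, median 13.47 in the controls, apart but short of the threshold at 0.40 ± 0.11 (SE, adjusted p = 0.0851). Grk1, a photoreceptor kinase, and Crx, the transcription factor of photoreceptor genes, differed by −0.36 (adjusted p = 0.103) and −0.35 (adjusted p = 0.111). Of 11 cone genes none passed, 3 were lower at an unadjusted p under 0.05 and the median was −0.20. Opn1mw, the middle-wavelength opsin, was at 5.73, 6.03, 6.09, 5.92 and 5.35 against 6.01 to 6.45, median 6.20, overlapping, and differed by −0.39 ± 0.13 (SE, adjusted p = 0.114). Medians were −0.12 over 12 bipolar genes, −0.08 over 16 ganglion cell and neurofilament genes, 0.02 over 27 presynaptic genes and −0.12 over 17 GABA and glycine genes, with no call in any of these lists. Gabra5, a GABA-A receptor subunit, differed by 0.67 ± 0.17 (SE, adjusted p = 0.0742), and Nefl, the light neurofilament chain, by −0.22 ± 0.08 (SE, adjusted p = 0.154). Gabra5 was dim and detected on every array only in the diabetic group, and with neqc its difference was 0.41.

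The Müller glia and pigment epithelium lists gave no call. Rlbp1, the retinal carrier protein CRALBP of both cell types, was at 11.09, 10.98, 10.80, 10.81 and 10.97 in diabetic rats 1 to 5 and 11.13 to 11.42, median 11.27 in the controls, without overlap, but at −0.32 ± 0.08 (SE, adjusted p = 0.0631) it missed the threshold. The 20 Müller homeostasis genes had no call and a median of −0.04, above 0 after quantile normalization. Slc38a3, the glutamine transporter of these glia, was at 9.45, 9.51, 9.75, 9.44 and 9.52 against 9.16 to 9.37, median 9.31, apart, and differed by 0.24 ± 0.07 (SE, adjusted p = 0.103). Of 12 pigment epithelium genes none passed, 4 were lower and 1 higher at an unadjusted p under 0.05 and the median was −0.23. Rpe65, the visual-cycle isomerase found in the pigment epithelium, was at 4.83, 5.91, 7.17, 6.01 and 6.03 against 5.81 to 8.38, median 7.27, and Rgr, an opsin of the same cells and of Müller glia, at 6.01, 7.57, 7.69, 6.78 and 6.22 against 7.03 to 9.41, median 8.49. The ranges overlapped for both, at differences of −1.11 (adjusted p = 0.167) and −1.38 (adjusted p = 0.108). The mean of this list ran from 7.80 to 8.73 in the controls, where rats 3 and 5 were low, and from 7.85 to 8.55 in the diabetic rats. How much pigment epithelium each retina carried was not measured, and its part in these differences was not tested.

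Of 27 endothelial, pericyte and barrier genes none passed, 6 were higher and 5 lower at an unadjusted p under 0.05 and the median was 0.05. Vegfa, the growth factor that drives vessel leak, was at 7.34, 6.61, 7.22, 6.89 and 7.51 in diabetic rats 1 to 5 and 7.53 to 7.98, median 7.67 in the controls. It was lower in every diabetic rat than in any control, and at −0.61 ± 0.14 (SE, adjusted p = 0.059) it missed the threshold. Pgf, the placental growth factor of the same family, went the other way, at 5.31, 5.56, 6.06, 6.21 and 5.41 against 3.32 to 5.25, median 4.67, also apart, with a difference of 1.44 ± 0.39 (SE, adjusted p = 0.0778) and 3 control arrays at the floor. Pgf was detected on every array only in the diabetic group, and with neqc its difference was 0.91. Plvap, a protein of fenestrated endothelium, differed by −0.30 ± 0.08 (SE, adjusted p = 0.0852). Of 32 basement membrane and matrix genes 1 rose, P3h4, and 1 fell, Omg, and Col11a2, a fibrillar collagen chain outside that list, fell by 0.60 ± 0.13 (SE, adjusted p = 0.0432), a call that stood in 1 of the 12 fits.

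The metabolic lists gave no call. None passed among 34 hypoxia and glycolysis genes (median −0.06), 69 respiratory chain subunits (0.03), 42 genes of fatty acid oxidation (−0.02, above 0 after quantile normalization), 38 of cholesterol and fatty acid synthesis (−0.09) and 35 of insulin, AKT and FOXO signalling (−0.04). Rpia, an isomerase of the pentose phosphate pathway, was at 8.68, 8.69, 8.58, 8.72 and 8.76 in diabetic rats 1 to 5 and 8.86 to 9.12, median 8.97 in the controls. Echs1, a hydratase of mitochondrial beta-oxidation, was at 8.99, 8.69, 8.58, 8.99 and 8.67 against 9.01 to 9.22, median 9.13. Neither overlapped between the groups, and the differences were −0.29 ± 0.06 (SE, adjusted p = 0.051) and −0.34 ± 0.09 (SE, adjusted p = 0.0701). The zinc finger proteins Zfp746 and Zbtb21 fell by 0.57 ± 0.10 (SE, adjusted p = 0.0233) and 0.64 ± 0.13 (SE, adjusted p = 0.0414), and the microtubule-associated Rmdn2, by 0.61 ± 0.13 (SE, adjusted p = 0.0448). These calls stood in 11, 4 and 1 of the 12 fits.

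**Figure D5:**
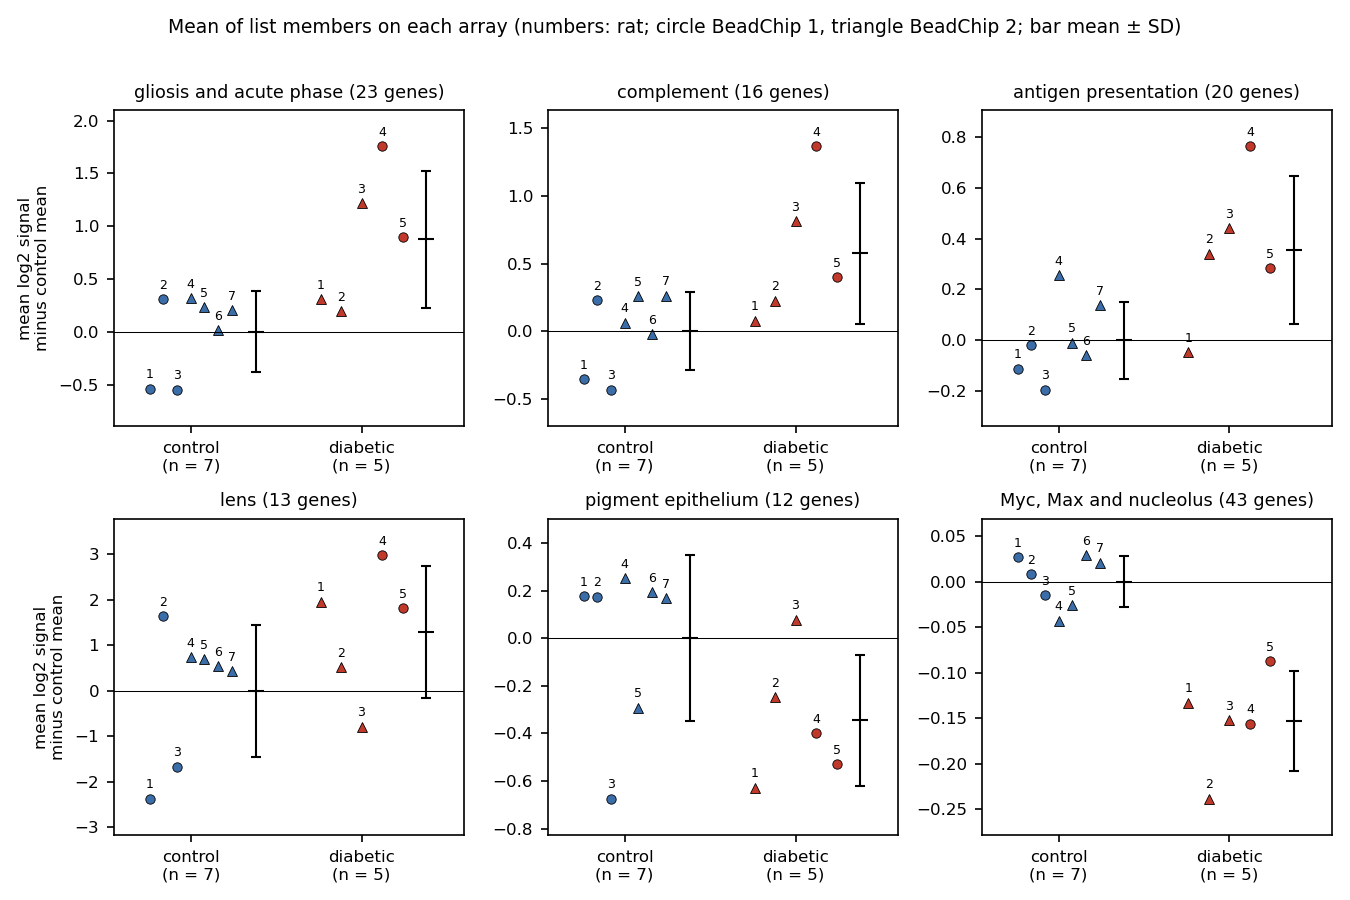
Mean log2 signal of the members of 6 gene lists on each array minus the control mean (y axis), 7 control rats in blue and 5 diabetic rats in red with their numbers, circles for BeadChip 1 and triangles for BeadChip 2, bars mean ± SD. Control rats 1 and 3 are lowest for the gliosis, complement and lens lists, at −2.37 and −1.67 for the lens, and the nucleolar list is the only one of the 6 whose groups do not overlap.

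Lens signal moved with some of these lists in the controls, and its part in them was not tested beyond the fits given here. Relative to the control means, diabetic rat 3 was the lowest diabetic rat for lens (−0.79) but at 1.22 for gliosis and 0.81 for complement. Diabetic rat 1, at 1.96 for lens, was at 0.31 and 0.08. Diabetic rat 4 was the highest for lens (2.98), gliosis (1.755) and complement (1.365). Control rats 1 and 3, lowest for lens genes, were also low for the gliosis list, at −0.54 and −0.55 relative to its control mean, and for the complement list, at −0.35 and −0.43. Without both of them the gliosis median was 0.75 and the complement median 0.39, and with the lens covariate the gliosis median was 0.72. The differences of Timeless, Tubb2b and Omg were 0.87, 0.695 and −0.79 with that covariate, and no probe passed the threshold with it. Under it the difference of Hmox1 was 1.40, that of Lcn2 1.35, of Tap2 1.12, of Pgf 1.08 and of Serping1 1.04, each smaller than without it, while those of Nfkb2 and RT1-A2 were larger at 1.55 and 1.08.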

How the data were processed

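RNA from 19 rat retinas, 1 Illumina RatRef-12 array each, was deposited as 2 tables of probe intensity, 1 of raw signals and 1 in which the authors had subtracted background and scaled the arrays to a common mean (average normalization, GenomeStudio 1.0.6 per the labels), each with a deposited detection p-value for every signal. A further 19 per-sample columns, the detection p-values of the raw table, were not used. Per the methods the authors removed 3 diabetic arrays after quality control, which leaves 5. All 7 arrays labelled as controls were used, while a legend of the study counts 1 more control array, which was not analysed here. Repeated identifiers were reduced to the brightest row (22226 probes), and names came from the platform annotation (13192 probes with 1 symbol). A gene was represented by its brightest tested probe.

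Signals under 10 were set to 10 and log2-transformed, and limma 3.58.1, run in R 4.3.3, compared the groups (lmFit and eBayes, two-sided, no covariate, Benjamini-Hochberg adjustment). A fold change is therefore compressed where signals were set to the floor. Some dim genes with few or no arrays at the floor had larger differences here than with neqc. Ears2 was at −1.21 against −0.59 and Nfkb2 at 1.36 against 0.74. Array measures were compared by exact permutation in scipy 1.17.1. The number of arrays limits the precision. Scripts were tested on simulated data. The genes named follow a rule: the 15 largest calls and 10 smallest p per direction, and in each list the called members, the 4 with the smallest p and the brightest, with the genes that the study followed by qPCR and the cell type markers. The genes and lists were chosen with earlier results of these data known. Alternatives covered floor, filter, scaling, test, blocks, weights and arrays left out. Replicate arrays came from separate rats.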

Additional observations from a re-analysis of the deposited data

Results flagged for a closer look

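Of 208 sets of values examined, each the values of 1 named gene or array measure in 1 group, 12 held a rat that stood apart from the rest of its group by Dixon's test at the 95% level, which chance alone flags in about 1 of 20 sets. In the diabetic group Tapbp was lowest in rat 1, at a log2 signal of 7.52 with the next rat at 7.95. Per2 was lowest in rat 2, at 8.90 against 9.38, and so was Mphosph10, at 8.77 against 9.01. Gnb1 was highest in rat 3, at 14.08 against 13.88, and so was Slc38a3, at 9.75 against 9.52. Polr1f was highest in rat 5, at 10.09 against 10.01. Rnf113a2 was highest in rat 2, at 8.43 against 4.81, while its control values were bright in 5 rats and dim in control rats 4 and 6, at 4.48 and 4.49. In the control group Pde9a was lowest in rat 7, at 8.08 against 8.34, and Dnajb1 highest in the same rat, at 11.98 against 11.65. Zbtb21 was lowest in rat 4, at 7.26 against 7.46, Ciita in rat 6, at 5.41 against 5.92, and Srsf7 in rat 2, at 7.62 against 7.83.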

How the results depend on the processing

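The number of changed probes, 107, was 188 with a floor of 50, 71 without the detection filter, 294 with all 3 groups in 1 model, 168 with array weights, 4 within BeadChip 1, 0 within BeadChip 2 and 23 by the methods' t-test with unequal variances. It ranged from 16 to 262 when 1 array was left out, with control rat 1 and diabetic rat 3 at the ends. In fits chosen after seeing the data it was 15 without the diabetic arrays of BeadChip 1, 37 without diabetic rats 2 and 3, 0 without control rats 1 and 3 and 0 with lens signal as a covariate. With the replicate number as a block it was 0. No source used here states that the numbers pair the rats. The deviations of same-numbered rats from their group means correlated between −0.23 and 0.29, and 0 of 5 diabetic rats correlated best with the control of their number. Such correlations cannot exclude a pairing by design. At an unadjusted p under 0.05 there were 2083 probes in the comparison as reported. The share of changed probes that were higher, 35.5%, was 22.9% with a floor of 50, 23.9% without the filter, 62.9% after quantile normalization, 60.8% with neqc, 45.6% with centred raw signals, 50% within BeadChip 1, 23% by the methods' t-test and 26.1% with unequal variances, 20.0% without the diabetic arrays of BeadChip 1 and 18.9% without diabetic rats 2 and 3. It ranged from 19.8% to 50.7% with 1 array left out. The methods' t-test, at its own unadjusted threshold and fold, called 1259 probes, 372 higher and 887 lower, and 152 after Benjamini-Hochberg adjustment. With BeadChip as a block 84 probes were called, 76 of them among the 107.

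Of 102 genes named with values, 44 passed the threshold, and none of these changed sign in any alternative that gave a value. With a floor of 50 Ears2 and Drd5 lay at the floor on every array and gave none. All 44 lost the call within either BeadChip, with the replicate block, with the lens covariate and without control rats 1 and 3, 39 without the diabetic arrays of BeadChip 1, 36 by the methods' t-test with unequal variances, 30 without diabetic rats 2 and 3 and 4 with all 3 groups in 1 model. With BeadChip as a block 12 lost it, Lcn2, RT1-A2, Slc1a5, Litaf, Rras, Tagln2, Txnip, Rpp38, Fkbp4, Eef1e1, Polr1f and Ctu2, at an adjusted p between 0.0501 and 0.061. Of the 70 genes called, 59 lost the call without control rat 1, 42 to 51 without each other control rat, and 19, 34, 8, 44 and 29 without diabetic rats 1 to 5. Among the genes that did not pass, Drd2 changed sign, to 0.0112 after quantile normalization, 0.0107 with neqc and 0.0463 without the diabetic arrays of BeadChip 1, and Aif1, to −0.0561 within BeadChip 2. The cause of these shifts was not tested. Nfkb2, Crh, Tap2 and Pgf lay near background, with 1, 1, 4 and 3 arrays at the floor, and Ciita had 1 array there.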
